A study of Mus musculus with 24 samples.

Results

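The genes described here are 10 enzymes and chaperones that act on collagen while it is folded in the cell and after it is secreted, measured in the mouse left ventricle in hypertension. They are the 5 lysyl oxidases Lox, Loxl1, Loxl2, Loxl3 and Loxl4, the 3 lysyl hydroxylases Plod1, Plod2 and Plod3, the collagen chaperone Serpinh1 and the prolyl hydroxylase subunit P4ha1. The genes were chosen by name, and all 10 were found among the 14912 genes of the expression table. Left ventricular RNA of wild-type (WT) male C57BL/6J mice was sequenced in 2 groups of 12 samples. The hypertensive-LVH group received angiotensin II (ANG II) from an implanted osmotic pump at 1500 ng/kg/min for 7 days, and the control group received saline for the same 7 days. The mice carried no transgene and no deleted gene in either group. Each sample is bulk RNA of left ventricular tissue, so that more cells of one type and more RNA per cell cannot be told apart in any difference given here.

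Collagen chains are made in the endoplasmic reticulum, where prolyl hydroxylases modify prolines and so make the triple helix stable at body temperature, while lysyl hydroxylases modify lysines. Serpinh1 binds the folded helix and travels with it towards the Golgi. Outside the cell, lysyl oxidases convert lysines and hydroxylysines to reactive aldehydes, from which the covalent cross-links between collagen molecules form. In the heart these enzymes are made mainly by fibroblasts, and cross-linked collagen is known to make the wall of the ventricle stiffer.

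Values are given as FPKM, fragments scaled to the length of the transcript and to the fragments of the library, which can be compared between genes. The deposited table was not plain FPKM, because 2741 of its values, 0.766% of all, were below 0, none of them in the 10 genes. Exact ties were counted between samples of the same group (218 to 546 genes in a pair of one set, at most 12 in a pair of different sets). They showed that each group had been adjusted as 4 sets of 3 samples, and the sets of the 2 groups were joined by sample number. By sample number these are set A (1 to 3), set B (4 to 6), set C (7 to 9) and set D (10 to 12). What distinguished the sets was not given in the sources used here. Correlations between samples were 0.939 to 0.996, and summed values were 460715 to 515185 in the hypertensive-LVH group and 482319 to 567727 in the control group. Red blood cell genes (6 genes, summed) were at 779 to 6445 FPKM in the hypertensive-LVH group and at 92.3 to 2949 FPKM in the control group. The adjustment moved the zero of each gene in each set, so log2 differences within a set depend on it. By the recovery given below it was made around a group difference, so the deposited values depend on the group labels. Results that set B changed are also given without it.

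All 10 genes were higher on average in the hypertensive-LVH group, as were 63.8% of the tested genes. With limma, 6 of the 10 passed an adjusted p of 0.05 in the direction of the hypertensive-LVH group, namely Lox, Loxl1, Loxl2, Loxl3, Loxl4 and Plod3, against 20.9% of the 14026 genes tested. In the other direction 0 of 10 passed, against 12.6% of all genes. No member was lower at an unadjusted p either, since every mean was higher. Lox, Loxl1, Loxl2 and Loxl3 also passed a log2 fold change of 0.5, a pair of criteria that 4.52% of all tested genes met upwards. The median log2 fold change of the 10 was 0.36, and that of all tested genes was 0.05. Without set B, 3 of the 10 passed (Lox, Loxl2 and Plod3), against 8.36% of all genes, and 2 passed both criteria (Lox and Loxl2), against 2.30%. The median of the 10 was then 0.17 and that of all genes 0.01.

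**Figure D1:**
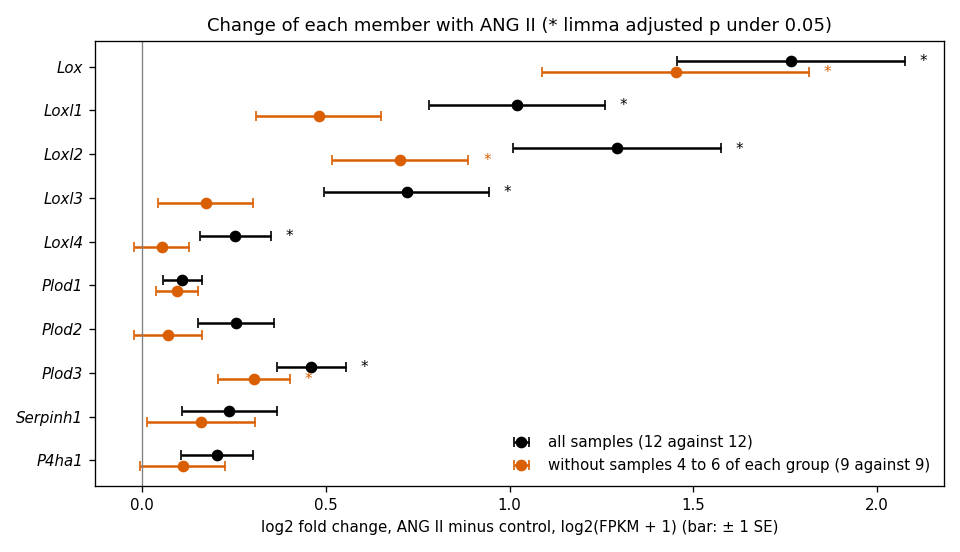
log2 fold change, hypertensive-LVH (ANG II) minus control, of each gene on the log2(FPKM + 1) scale, with bars of ± 1 SE, from all 24 samples and without set B. Lox has the largest change of the 10 in both fits (1.77 and 1.45), while Loxl3 falls from 0.72 to 0.17 when set B is left out.

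Lox, the founding lysyl oxidase, which acts on both collagen and elastin, changed most among the 10. It was at 5.95 FPKM in the lowest, 17.9 at the median and 39.8 in the highest sample of the hypertensive-LVH group, and at 1.31, 5.30 and 9.58 FPKM in the control group. All 12 hypertensive-LVH samples lay above the control median and 10 above every control sample, and the groups overlapped in the remaining samples. The means were 18.7 ± 9.55 and 5.09 ± 3.31 FPKM (SD, n = 12 each), a ratio of 3.67. The log2 fold change was 1.77 ± 0.31 (SE; limma, adjusted p = 1.52e-04). An exact permutation test with labels exchanged only within the 4 sets (two-sided) gave p = 1.25e-05, the smallest that its 160000 relabelings allow.

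Within each of the 4 sets, the lowest deposited Lox value of the hypertensive-LVH group was above the highest of the control group. In the values recovered from before the adjustment, described below, this held in 3 of the 4 sets. In set A the means were 14.3 ± 3.64 and 8.86 ± 0.907 FPKM (SD, n = 3 each), and in set B they were 21.5 ± 8.10 and 2.41 ± 0.995. In set C they were 22.6 ± 16.9 and 1.62 ± 0.123, and in set D they were 16.3 ± 7.93 and 7.46 ± 0.103. The difference of the means was thus 5.40 FPKM in set A, 19.1 in set B, 21.0 in set C and 8.81 in set D, and the control means differed as well.

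Loxl1, an oxidase that binds elastic fibres and acts on elastin, was the most abundant of the family in both groups. Its values were 25.2, 50.3 and 79.5 FPKM (lowest, median and highest) in the hypertensive-LVH group and 8.83, 26.5 and 43.6 FPKM in the control group. Of the 12 hypertensive-LVH samples 8 exceeded every control sample. The log2 fold change was 1.02 ± 0.24 (limma, adjusted p = 0.00226; exact within sets, p = 0.00159), from means of 51.8 ± 17.7 and 26.2 ± 11.0 FPKM (SD, n = 12 each). The difference was largest in set B, at 70.1 against 10.5 FPKM, and smallest in set A, at 38.6 against 37.4 FPKM. Without set B the log2 fold change was 0.48 and limma's adjusted p was 0.0512.

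Loxl2, which cross-links the type IV collagen of basement membranes as well as fibrillar collagen, ran at 9.41, 18.2 and 26.02 FPKM in the hypertensive-LVH group. In the control group it ran at 0.549, 7.87 and 12.5 FPKM. The groups overlapped, with 8 hypertensive-LVH samples above every control sample. The means of 18.1 ± 6.54 and 7.41 ± 3.66 FPKM (SD, n = 12 each) stood in a ratio of 2.44, and the log2 fold change was 1.29 ± 0.28 (limma, adjusted p = 0.00128; exact within sets, p = 1.50e-04). In set B the means were 24.05 and 2.31 FPKM, whereas in set A they were 13.3 and 11.4 FPKM. Without set B the log2 fold change was 0.70 (limma, adjusted p = 0.0119).

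Loxl3, a further family member with the same catalytic domain, was at 4.75, 9.91 and 17.7 FPKM in the hypertensive-LVH group and at 1.99, 7.39 and 7.99 FPKM in the control group. The log2 fold change was 0.72 ± 0.22 (limma, adjusted p = 0.0159; exact within sets, p = 0.0132). This difference lay mostly in set B, where the 3 hypertensive-LVH samples were at 13.5 to 17.7 FPKM and the 3 control samples at 1.99 to 2.17 FPKM. Control means in the other sets were 7.42, 7.51 and 7.78 FPKM, beside 8.95, 9.13 and 8.94 FPKM in the hypertensive-LVH group. Without set B the log2 fold change was 0.17 (limma, adjusted p = 0.371). In the values recovered from before the adjustment, described below, the exact test within sets without set B gave p = 0.00975.

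Loxl4 was the least abundant of the 10 genes. It was at 0.380, 0.779 and 1.65 FPKM in the hypertensive-LVH group and at 0.0918, 0.587 and 0.800 FPKM in the control group, and 4 hypertensive-LVH samples exceeded every control sample. The log2 fold change of 0.25 ± 0.10 was just past the threshold (limma, adjusted p = 0.0450; exact within sets, p = 0.0294). With a pseudocount of 0.1 in place of 1 limma's adjusted p was 0.0562, and without set B it was 0.647.

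**Figure D2:**
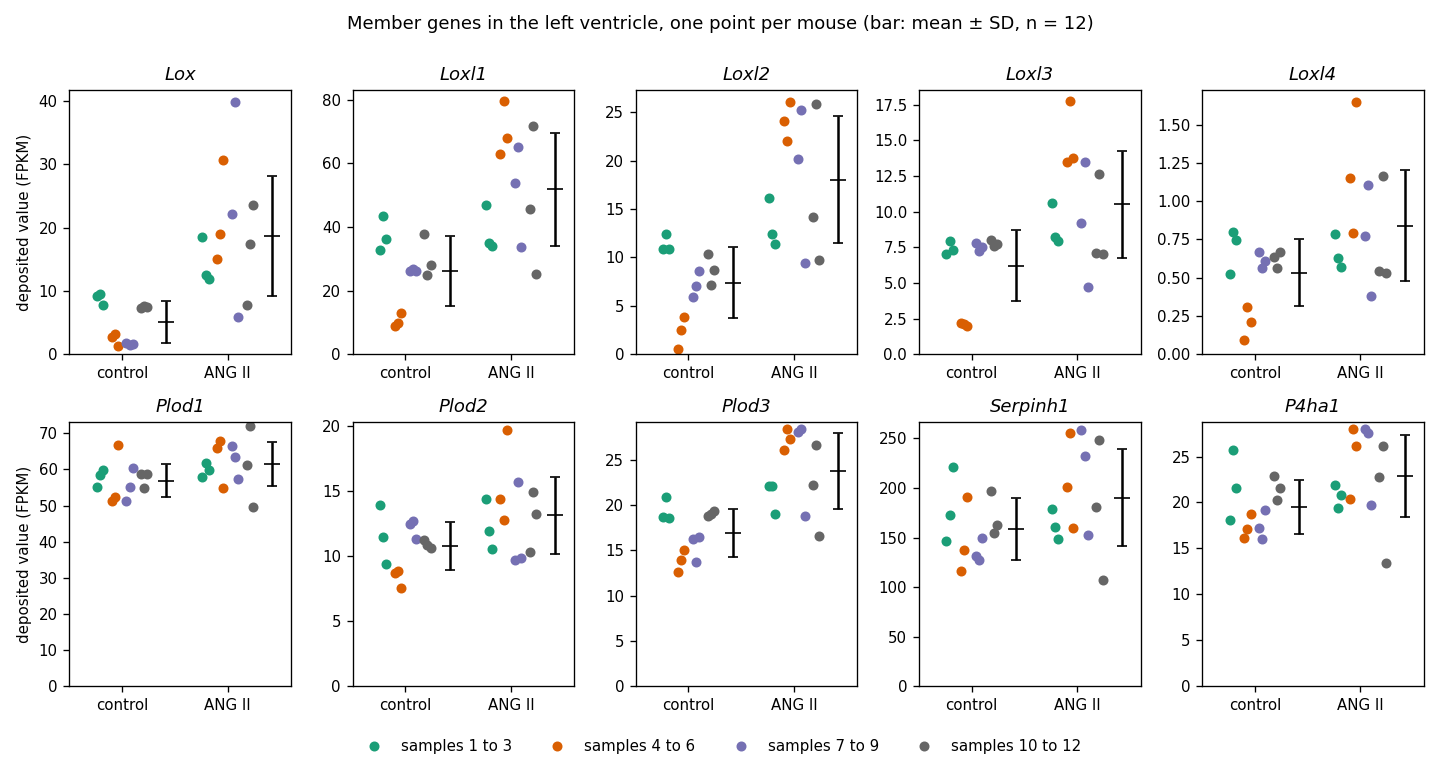
FPKM of each gene in every sample of the control and hypertensive-LVH (ANG II) groups, with the mean ± SD (n = 12 each) and points marked by set. Lox in the hypertensive-LVH group reaches 39.8 FPKM while no control sample exceeds 9.58 FPKM, and the groups of Plod1 overlap over most of their range.

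Whether one member changed more than another was tested on the per-sample log2 ratio of the pair, as the difference of their log2(FPKM + 1) values. An equal fold change of both genes cancels in it only where both lie well above 1 FPKM. Loxl4 did not, nor did the lowest control values of Lox (1.31 FPKM), Loxl2 (0.549 FPKM) and Loxl3 (1.99 FPKM). Of the 13 pairs within the lysyl oxidase and lysyl hydroxylase families, 10 differed (permutation test, Benjamini-Hochberg over the 13). Lox rose more than Loxl1 by 0.75 ± 0.30 on the log2 scale (permutation test, adjusted p = 0.0247) and more than Loxl3 by 1.05 ± 0.29 (permutation test, adjusted p = 0.00117). Loxl2 rose more than Loxl1, with a change of the log2 ratio of Loxl1 to Loxl2 of -0.27 ± 0.10 (permutation test, adjusted p = 0.00757). The change of Lox against Loxl2 was 0.47, with an interval (± 2 SE) of -0.13 to 1.08 (permutation test, adjusted p = 0.143). In the lysyl oxidase family this was the only pair of 10 whose test missed the threshold. With a pseudocount of 0.1, 8 of the 13 pairs passed, the pairs of Loxl1 with Loxl3 and of Loxl3 with Loxl4 no longer among them. The sizes moved too, to 0.98 for Lox against Loxl1 and -0.43 for Loxl1 against Loxl2, and both pairs still passed. Without set B 9 passed, and Lox against Loxl2 was then among them (0.75; permutation test, adjusted p = 0.0442).

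Plod1, a lysyl hydroxylase that modifies lysines of the collagen helix, showed the smallest change. It was at 49.6, 61.6 and 72.0 FPKM in the hypertensive-LVH group and at 51.2, 56.8 and 66.7 FPKM in the control group, so the groups overlapped over most of their range. The log2 fold change was 0.11 ± 0.05 (limma, adjusted p = 0.109; exact within sets, p = 0.0685). Plod2, which hydroxylates lysines of the collagen telopeptides, was at 9.73, 13.03 and 19.7 FPKM in the hypertensive-LVH group. In the control group it was at 7.57, 11.1 and 13.9 FPKM. Its log2 fold change of 0.25 ± 0.10 did not pass (limma, adjusted p = 0.0576), while the exact test within sets gave p = 0.0386. Without set B its log2 fold change was 0.07 (limma, adjusted p = 0.632).

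Plod3, which has glycosyltransferase activity besides its hydroxylase activity, was the lysyl hydroxylase that passed limma's adjusted p. It was at 16.6, 24.1 and 28.4 FPKM in the hypertensive-LVH group and at 12.7, 17.5 and 20.9 FPKM in the control group. Of the 12 hypertensive-LVH samples 9 lay above every control sample. The means were 23.8 ± 4.20 and 16.9 ± 2.65 FPKM (SD, n = 12 each), and the log2 fold change was 0.46 ± 0.09 (limma, adjusted p = 6.25e-04; exact within sets, p = 5.75e-04). Without set B it was 0.30 (limma, adjusted p = 0.0330). Although its fold change was below 0.5, its adjusted p was lower than that of Loxl1, Loxl2, Loxl3 or Loxl4. The ratio of Plod1 to Plod3 fell by 0.35 on the log2 scale (SE 0.08; permutation test, adjusted p = 7.80e-04). The changes of Plod1 against Plod2 (-0.15, interval -0.40 to 0.11) and of Plod2 against Plod3 (-0.21, interval -0.43 to 0.02) did not pass.

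Serpinh1 was the most abundant of the 10 in both groups. It was at 107, 180 and 259 FPKM in the hypertensive-LVH group and at 117, 152 and 221 FPKM in the control group, with the lowest value of all in a hypertensive-LVH sample. The means were 190 ± 48.9 and 159 ± 31.2 FPKM (SD, n = 12 each), and the log2 fold change of 0.24 ± 0.13 did not pass (limma, adjusted p = 0.153; exact within sets, p = 0.122). P4ha1, the catalytic subunit of a collagen prolyl 4-hydroxylase, was at 13.4, 22.4 and 28.0 FPKM beside 16.0, 18.9 and 25.7 FPKM in the control group. Its log2 fold change was 0.20 ± 0.10 (limma, adjusted p = 0.109; exact within sets, p = 0.0813). These calls turned on 1 library: without sample 12 of the hypertensive-LVH group limma's adjusted p was 0.0418 for Serpinh1 and 0.0138 for P4ha1, and it was 0.0296 for Plod1.

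Of the control group, the order of mean level was Serpinh1, Plod1, Loxl1, P4ha1, Plod3, Plod2, Loxl2, Loxl3, Lox and Loxl4, from 159 down to 0.533 FPKM. Neighbours whose test over the 12 control samples missed the threshold were Loxl1 and P4ha1 (exact permutation test of paired values, adjusted p = 0.181), Loxl2 and Loxl3 (exact, adjusted p = 0.333) and Loxl3 and Lox (exact, adjusted p = 0.237). The test took the control samples as independent, but their levels differed by set, as for Loxl1 (37.4 FPKM in set A, 10.5 in set B). These p-values therefore do not measure the spread between single mice alone. In the hypertensive-LVH group Lox stood at rank 6 in place of 9 in the order of mean FPKM, and Plod3 at rank 4 in place of 5. Lox was thus among the least abundant of the family in control samples, at 5.09 FPKM beside 26.2 for Loxl1.

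The 4 sets did not give the same difference. On the log2(FPKM + 1) scale the median difference of the 10 genes was 0.07 in set A, 0.89 in set B, 0.55 in set C and 0.15 in set D. Fitted on one set at a time with limma, 0 of the 10 genes passed the adjusted p upwards in set A (0% of all genes) and 0 in set D (0.0713%). Unadjusted, 1 and 2 of the 10 passed in those sets, against 4.07% and 5.55% of all genes. In set B, 8 of 10 passed the adjusted p (22.1% of all genes) and 8 the unadjusted p (33%), the exceptions being Plod1 and Serpinh1. In set C, 1 passed the adjusted p, Lox (2.17% of all genes), and 6 the unadjusted p (9.72%). A test of group by set over all 24 samples found a difference that varied between sets for 6 of the 10 genes, against 7.49% of all genes, and these were the 5 lysyl oxidases and Plod3 (limma, adjusted p = 2.73e-04 for Loxl3 to 0.0367 for Loxl4).

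Values of each gene before the adjustment could be told from the spacing of its values, since FPKM had first been rounded to 0.01. In the model solved, each set was shifted and rescaled around a group difference that the 4 sets share. The group labels thus entered the deposited values, and the limma and exact tests on those values took them as given. A single solution was found for 10 of 10 genes, with set scales of 0.607 to 1.31. This recovery was chosen after the data were seen. Before the adjustment, Lox was higher in the hypertensive-LVH group by 2.51, 19.4, 20.9 and 10.3 FPKM in the 4 sets in order (exact within sets, p = 7.50e-05). Loxl1 differed by -7.09, 69.3, 26.01 and 16.6 FPKM (exact, p = 0.00446), and Loxl2 by -0.50, 24.8, 11.1 and 7.72 FPKM (exact, p = 9.50e-04). In set A, therefore, both had a lower mean with ANG II before the adjustment and a higher one after it.

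Loxl3 differed by 0.42, 12.4, 4.52 and 2.34 FPKM before the adjustment (exact, p = 4.88e-04), and Loxl4 by -0.13, 0.96, 0.29 and 0.19 FPKM (exact, p = 0.0116). Plod3 differed by 0.26, 13.4, 9.20 and 1.79 FPKM (exact, p = 0.00328). Plod2 differed by -0.083, 7.12, 1.40 and 2.97 FPKM (exact, p = 0.00725), so that its difference in set C was positive before the adjustment and negative after it. The tests of Plod1 (exact, p = 0.106), Serpinh1 (exact, p = 0.226) and P4ha1 (exact, p = 0.0909) missed 0.05 before the adjustment too. Of the 40 differences of a gene within a set, 4 changed sign. Without set B, Lox (exact, p = 0.00150), Loxl2 (exact, p = 0.0190) and Loxl3 (exact, p = 0.00975) kept a p under 0.05 before the adjustment, whereas Plod3 (exact, p = 0.0655), Loxl1 (exact, p = 0.0893), Plod2 (exact, p = 0.133) and Loxl4 (exact, p = 0.221) did not.

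**Figure D3:**
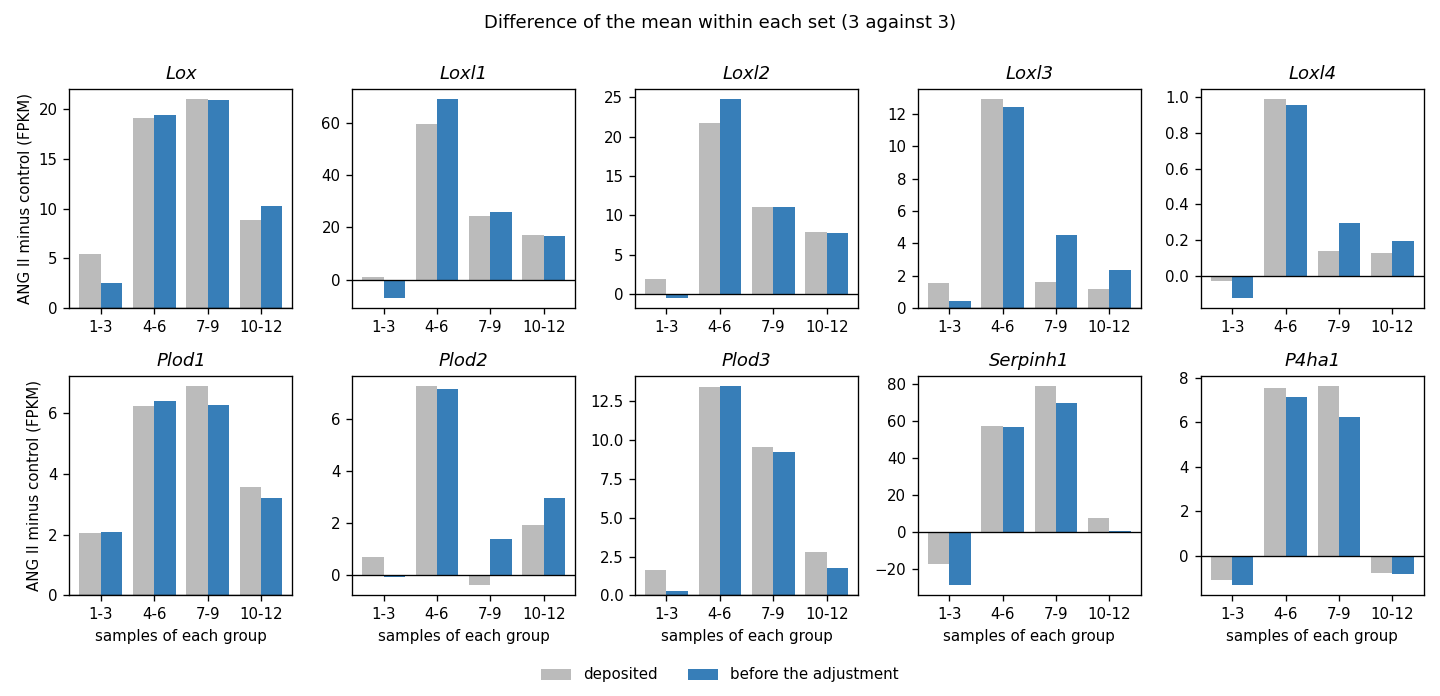
Difference of the mean FPKM, hypertensive-LVH minus control, in each set (3 against 3 samples; sets by sample number) for each gene, as deposited and before the adjustment. Lox is above 0 in every set both ways, and Loxl1 and Loxl2 are above 0 in set A only as deposited.

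Samples also varied within the groups, and most of the 10 genes varied together. After the mean of each group in each set was removed, Pearson's r over the 24 samples had a median of 0.65 over the 45 pairs and a range of -0.28 to 0.89. These values share libraries and the adjustment, and are given as a description. The highest were Plod1 with Serpinh1 (0.89), Loxl1 with P4ha1 (0.88), Loxl1 with Serpinh1 (0.85) and Plod3 with P4ha1 (0.85). Lox was highest with Loxl3 (0.71) and Plod2 (0.70) and near 0 with Serpinh1 (0.02). Plod1 with Plod2 had the lowest (-0.28).

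**Figure D4:**
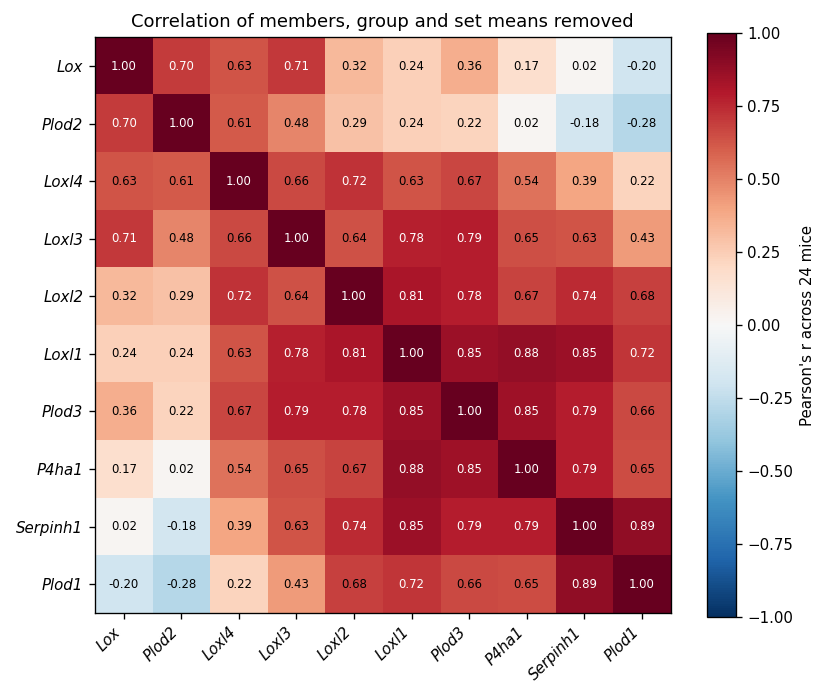
Pearson's r between the genes over 24 samples on the log2(FPKM + 1) scale, after the mean of each group in each set was removed. Among Serpinh1, Plod1, Loxl1, P4ha1 and Plod3 the values run from 0.65 (Plod1 with P4ha1) to 0.89 (Plod1 with Serpinh1). Loxl2 has 0.67 (with P4ha1) to 0.81 (with Loxl1) with them, and Loxl3 has 0.43 (with Plod1) to 0.79 (with Plod3). Lox and Plod2 are nearer to each other (0.70) than to Plod1.

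The genes outside the 10 whose pattern was most like the mean of the standardised members, with the group means removed, were Ctsz (r = 0.96 over 24 samples), Rcn3 (0.96), Pcolce (0.95), Anxa2 (0.95) and Sparc (0.95). With the set means removed as well, r was 0.92, 0.92, 0.90, 0.91 and 0.92 in the same order. Ctsz is a lysosomal protease, Rcn3 a calcium-binding protein of the endoplasmic reticulum, Pcolce an enhancer of procollagen processing, Anxa2 a membrane-binding annexin and Sparc a collagen-binding matrix protein. All 5 rose, with log2 fold changes of 0.71 (Pcolce) to 1.10 (Sparc), and 63.8% of all tested genes were higher in the mean. The 5 were picked from these same data for following the members, with the set differences left in. Their rise is therefore not separate support.

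By the GENCODE vM21 annotation of GRCm38, all 10 are protein-coding genes on 9 chromosomes, Loxl1 (chr9:58287738-58313186) and Plod2 (chr9:92542223-92608428) sharing one. Loxl2 is at chr14:69609068-69695834, Loxl3 at chr6:83034173-83052562, Loxl4 at chr19:42593982-42612813 and Plod1 at chr4:147909753-147936767. Plod3 is at chr5:136987019-136996648, Serpinh1 at chr7:99345376-99353239 and P4ha1 at chr10:59323296-59373304. The build used for the expression values was not given in the sources used here.

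RefSeq promoters (GRCm38.p6, 250 bases before to 50 after the start) were matched by symbol for 5 of the 10 genes, Loxl4, Plod1, Plod3, Serpinh1 and P4ha1. Those of Plod1 (chr4:147936727-147937026, minus strand), Plod3 (chr5:136986769-136987068, plus strand), Serpinh1 (chr7:99353190-99353489, minus strand) and P4ha1 (chr10:59323046-59323345, plus strand) are shown because these genes act on collagen inside the cell. Each is written 5′ to 3′, with the motifs searched in capitals:
Plod1: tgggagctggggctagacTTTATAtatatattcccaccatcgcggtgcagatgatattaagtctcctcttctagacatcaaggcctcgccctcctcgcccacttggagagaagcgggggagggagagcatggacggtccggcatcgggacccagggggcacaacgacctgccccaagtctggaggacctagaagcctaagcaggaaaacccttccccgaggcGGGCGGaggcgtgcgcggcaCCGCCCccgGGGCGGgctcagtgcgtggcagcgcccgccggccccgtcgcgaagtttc
Plod3: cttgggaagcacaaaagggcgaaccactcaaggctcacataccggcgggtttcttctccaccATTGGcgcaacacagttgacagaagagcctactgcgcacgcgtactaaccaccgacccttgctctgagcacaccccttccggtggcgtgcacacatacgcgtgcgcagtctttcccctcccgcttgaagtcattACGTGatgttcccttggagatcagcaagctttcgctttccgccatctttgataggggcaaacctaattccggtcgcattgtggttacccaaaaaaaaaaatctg
Serpinh1: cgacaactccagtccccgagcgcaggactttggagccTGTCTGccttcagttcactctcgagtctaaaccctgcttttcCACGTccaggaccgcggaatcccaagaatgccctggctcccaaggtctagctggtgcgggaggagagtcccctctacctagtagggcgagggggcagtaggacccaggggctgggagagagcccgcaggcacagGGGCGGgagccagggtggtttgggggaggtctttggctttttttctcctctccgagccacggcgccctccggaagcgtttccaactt
P4ha1: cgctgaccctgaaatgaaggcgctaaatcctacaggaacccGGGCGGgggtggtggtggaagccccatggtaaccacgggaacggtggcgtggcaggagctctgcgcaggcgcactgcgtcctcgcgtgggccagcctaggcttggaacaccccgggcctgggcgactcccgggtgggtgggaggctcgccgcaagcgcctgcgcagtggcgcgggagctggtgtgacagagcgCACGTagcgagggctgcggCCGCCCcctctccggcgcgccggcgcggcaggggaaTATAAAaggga

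The letters searched, on both strands, were ACGTG (the core of a hypoxia response element), CCAAT (named for its letters), GGGCGG (known as the GC box), CAGACA (a SMAD box) and TATAAA (known as the TATA box). The matches did not overlap each other. ACGTG was found 1 time in each of the promoters of Plod3, Serpinh1 and P4ha1 and in 19.6% of 32851 promoters of the same length. It was not found in the promoters of Loxl4 and Plod1, which held GGGCGG 3 times each, and Plod1 held TATAAA 1 time. Plod3 held CCAAT 1 time (37.4% of all), Serpinh1 held GGGCGG 1 time (35.7%) and CAGACA 1 time (21%), and P4ha1 held GGGCGG 2 times and TATAAA 1 time (13.6%). A match says only that these letters are present in this window.

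Other genes of the same steps were taken from fixed lists. Beside the counts of these lists and of the cell type markers stand 20.9% higher and 12.6% lower of all tested genes. Without set B these shares were 8.36% higher and 11.6% lower. Of 27 further collagen processing genes tested (other hydroxylases, glycosyltransferases, export factors and propeptide proteases), 14 were higher and 1 lower by limma's adjusted p, and the median log2 fold change was 0.29. The largest changes were those of Adamts2, which removes the amino-terminal propeptide (1.39, adjusted p = 0.0150), P4ha3, another prolyl hydroxylase subunit (0.76, adjusted p = 0.00157), and Bmp1, which removes the carboxy-terminal propeptide (0.71, adjusted p = 0.00344). P3h4, a component of the lysyl hydroxylase complex of the endoplasmic reticulum, fell by 0.24 on the log2 scale (limma, adjusted p = 0.00153). Without set B, 4 were higher and 2 lower and the median was 0.12. The log2 fold change was then 0.38 for Adamts2 (limma, adjusted p = 0.0180), 0.51 for P4ha3 (limma, adjusted p = 0.0428) and 0.28 for Bmp1, which no longer passed (limma, adjusted p = 0.0694). Adamts2 had 2 values below 0 and P4ha3 had 3, which were set to 0. P4hb, the other subunit of the prolyl hydroxylase of P4ha1, was at 123, 146 and 186 FPKM beside 103, 116 and 140 FPKM, with a log2 fold change of 0.33 ± 0.07 (limma, adjusted p = 8.03e-04). It was named after its values were seen.

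Of the 10 substrates of cross-linking (fibrillar collagen chains and elastin), 8 were higher and 0 lower, with a median of 1.16. Col1a1 (2.77, limma adjusted p = 0.0180), Col3a1 (2.63, adjusted p = 0.0418) and Col1a2 (2.49, adjusted p = 0.0296) had the largest log2 fold changes, and each had 3 values below 0 that were set to 0 for the log. Without set B their log2 fold changes were 0.77, 0.39 and 0.51, of which that of Col1a1 passed, 3 of the 10 substrates passed, and the median was 0.33. Of 10 partners of lysyl oxidases in the matrix, 6 were higher and 0 lower, led by Fn1 (fibronectin, 2.08, limma adjusted p = 0.0233), Ltbp2 (1.41, adjusted p = 0.0180) and Lum (lumican, 1.15, adjusted p = 0.0311). Fn1 and Ltbp2 each had 3 values below 0 that were set to 0 for the log. In set B their log2 differences were 6.94 and 4.77, against 0.43 to 0.50 and 0.09 to 0.42 in the other sets. Without set B none of these 6 passed, and the limma adjusted p was 0.0891 for Fn1, 0.172 for Ltbp2 and 0.212 for Lum. The 1 of 10 that passed then was Thbs1 (limma, adjusted p = 0.0288), which had not passed with all samples (limma, adjusted p = 0.179) and is named after its values were seen.

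Of 10 upstream signal genes, 4 were higher and 3 lower. The growth factors Tgfb3 (0.95, limma adjusted p = 0.00129) and Tgfb2 (0.66, adjusted p = 3.30e-04) rose, and Egln3, an oxygen-sensing hydroxylase, fell by 0.45 (limma, adjusted p = 0.0207). Smad3, which carries TGF-β signals to the nucleus, fell by 0.18 (limma, adjusted p = 0.0166), and Agtr1a, the receptor of ANG II, fell by 0.30 (limma, adjusted p = 0.00301). Without set B, 3 were higher and 2 lower, Tgfb3 was at 0.51 (limma, adjusted p = 0.0277) and Egln3 did not pass (limma, adjusted p = 0.0556). Of 12 general folding and stress genes of the endoplasmic reticulum, 4 were higher and 0 lower, with a median of 0.06 beside 0.05 for all genes. The chaperone Hsp90b1 (0.31, limma adjusted p = 0.00677), the transcription factor Atf4 (0.28, adjusted p = 0.0135) and the disulfide isomerase Pdia3 (0.20, adjusted p = 0.0340) had the largest changes. Without set B, 2 of the 12 passed, Hsp90b1 and Atf4, and Pdia3 was at 0.14 (limma, adjusted p = 0.257).

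**Figure D5:**
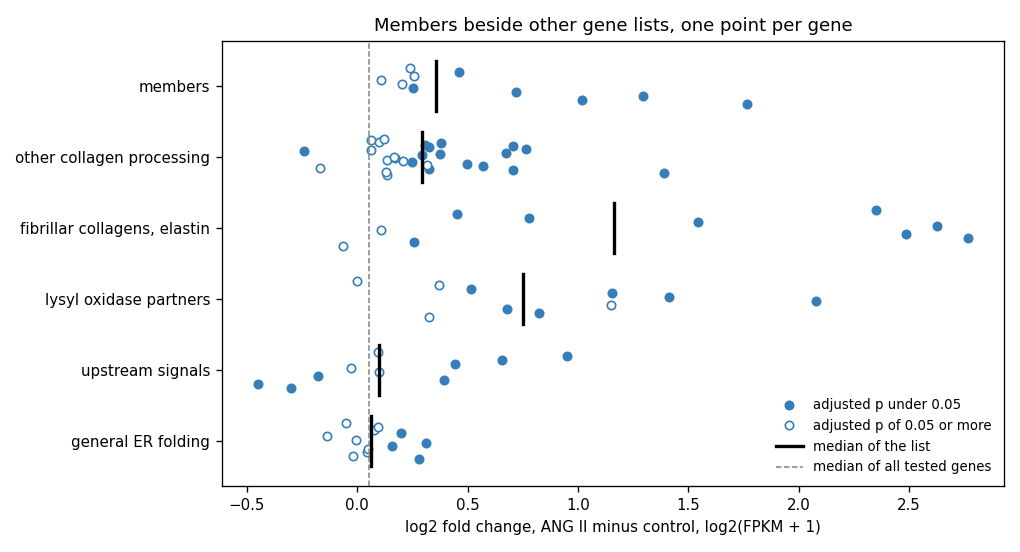
log2 fold change, hypertensive-LVH minus control on the log2(FPKM + 1) scale, 1 point per gene, of the 10 genes beside the other gene lists, with each list's median and, as a dashed line, the median of all tested genes (0.05). The substrates of cross-linking have the highest median (1.16), and the general folding genes of the endoplasmic reticulum lie near the dashed line (0.06).

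Markers of the cell types of the heart moved with the groups as well. Summed over 10 fibroblast markers, the level was 651 to 1320 FPKM in the hypertensive-LVH group and 660 to 1029 FPKM in the control group (medians 794 and 958), with 4 of the 10 markers higher and 1 lower (Gsn, gelsolin) by limma. Gsn, at 458 FPKM on average beside 639 FPKM, made up much of that sum, and the other 9 markers were at 275 to 603 FPKM beside 140 to 342 FPKM (medians 364 and 281). Macrophage markers were at 192 to 546 FPKM beside 136 to 286 FPKM (7 of 8 higher), and cardiomyocyte markers at 33485 to 47427 FPKM beside 44360 to 54830 FPKM (5 of 8 lower). Endothelial markers were at 353 to 573 FPKM beside 387 to 492 FPKM (1 higher and 1 lower of 8). Smooth muscle and pericyte markers were at 338 to 512 FPKM beside 267 to 458 FPKM (2 higher and 2 lower of 8, with Tagln and Cnn1 at 0 in some sample). Of 6 red blood cell markers 5 were higher and Hba-a2 was at 0 in some sample. The 3 atrial myocyte markers, each at 0 in some sample, were at 0 to 2303 FPKM beside 0 to 3153 FPKM, and the 5 mesothelial and epicardial markers at 4.16 to 28.3 FPKM beside 5.43 to 55.4 FPKM, with none of either list called. Without set B, 0 of 8 macrophage, 1 of 10 fibroblast (Mfap5) and 0 of 8 smooth muscle and pericyte markers were called higher, and 4 of 8 cardiomyocyte markers lower, while the 5 red blood cell markers still passed.

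The fibroblast and macrophage sums differed between the sets too. Without Gsn (a sum added with the values already known), the mean fibroblast level was 516 FPKM in the hypertensive-LVH group and 150 FPKM in the control group in set B, while in set A it was 333 and 304 FPKM. It was 360 and 285 FPKM in set C and 352 and 299 FPKM in set D, so that without Gsn it was higher with ANG II in each set. The sum of all 10 markers, Gsn included, was higher with ANG II in set B only (1054 beside 736 FPKM). It was lower in set A (799 beside 918 FPKM), set C (777 beside 955 FPKM) and set D (760 beside 985 FPKM). The mean macrophage sum was 403 and 146 FPKM in set B and 272 and 258 FPKM in set A. The part of these cell types in the differences of the 10 genes was not tested.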

How the data were processed

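RNA of 24 left ventricular samples (12 per group) was analysed; the study's methods state more biological replicates per group than these, and the others were not analysed here. It was sequenced on an Illumina instrument from oligo(dT)-selected libraries. The authors deposited 1 table with a value per gene and sample, named FPKM; the submitters' processing notes name Bowtie2, HISAT and RSEM, and versions, genome build and the adjustment of the values were not given in the sources used here. The deposited values were rescaled FPKM and could be below 0, so count tests were not used. Fragments per sample were not known and no counting interval was made, so that precision rests on the spread over 12 samples. The study's methods call the samples of a group biological replicates.

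Values below 0 were set to 0, genes with a mean of at least 0.1 FPKM were kept (14026), and log2(FPKM + 1) was tested with limma 3.58.1 in R 4.3.3 (intensity trend, Benjamini-Hochberg adjustment over all genes tested). A fold change on this scale understates the change of genes of low level, such as Loxl4. Both criteria means an adjusted p under 0.05 and a log2 fold change over 0.5. Exact permutation within sets used all 160000 relabelings, is two-sided and is given per gene without adjustment over the 10; pairs of genes were tested with 100000 resamples, two-sided. Values before the adjustment were solved from the spacing of the values; the method was tested on simulated data. Figures were drawn with matplotlib 3.10.9. The members, the gene lists and the tests were chosen with earlier results of these data known. Named are all 10 members; of each list that marks no cell type, the 3 genes with the largest change past the adjusted p and any gene past it against the direction of its list; and the 5 genes most alike in pattern. Alternatives were another pseudocount and filter, 2 other scalings, no trend, values without a log, set as a term, replicate number as a block, each set left out and each sample left out.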

Additional observations from a re-analysis of the deposited data

Results flagged for a closer look

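The difference between the groups varied between the 4 sets of samples for 6 of the 10 genes, by a test of group by set over the 24 samples (limma, adjusted over all genes), while 7.49% of all tested genes passed that test. The adjusted p was 0.000273 for Loxl3, 0.00109 for Loxl1, 0.00571 for Loxl2, 0.0321 for Plod3, 0.0366 for Lox and 0.0367 for Loxl4. For Loxl3 the log2 difference of the deposited values was 2.36 in set B and 0.13 to 0.23 in the other sets. Its deposited difference was 1.62 FPKM in set C and 1.16 in set D, and before the adjustment it was 4.52 and 2.34 FPKM. The other log2 differences given here are of deposited values too. For Loxl1 it was 2.64 in set B and 0.04 in set A, and for Loxl2 it was 3.07 and 0.19. For Plod3 it was 0.93 in set B and 0.11 in set A, and for Loxl4 it was 0.85 and -0.02. Lox had its largest log2 difference in set C (2.84), with 2.71 in set B and 0.61 in set A. With a pseudocount of 0.1 the number of genes was again 6.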

How the results depend on the processing

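Leaving out set B (samples 4 to 6) lowered the members past the adjusted p from 6 to 3 and those past both criteria from 4 to 2, and turned the change of Plod1 against Plod2 from -0.145 to 0.0246. Under the other alternatives besides single samples, those without set A, C or D included, 4 to 7 members passed the adjusted p upwards (11.3% to 22.3% of all genes). Both criteria were passed by 3 to 5 members (3.28% to 8.18% of all genes), and 0 passed downwards (8.83% to 20.8%). With each sample left out in turn (24 fits), 5 to 9 passed the adjusted p, 4 to 5 both criteria and 0 downwards, and Lox, Loxl1, Loxl2, Loxl3 and Plod3 passed in all 24. The share of all genes was not taken in these 24 fits. Loxl4 passed in 11 of the 24 and failed without ANG II sample 1, 4, 5, 6, 7, 8 or 11 or control sample 1, 4, 5, 6, 8 or 11 (limma, adjusted p 0.0204 to 0.0838 over the fits). Plod2 passed in 7, without ANG II sample 3, 7, 9 or 10 or control sample 1, 7 or 8 (limma, adjusted p 0.0320 to 0.109), and Plod1, Serpinh1 and P4ha1 passed only without ANG II sample 12. Loxl4 also failed with quantile normalization, with a pseudocount of 0.1, with set as a term and without set B, C or D. Plod2 passed with median-ratio scaling and without set C, and P4ha1 without set D. Quantile normalization turned the split of all genes from 20.9% higher and 12.6% lower to 13.7% and 20.8%, with the members at 5 and 0. Loxl4 has no value with a mean of at least 1 FPKM.

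With the replicate number as a block, 4 members passed the adjusted p upwards, against 11.3% of all genes (Loxl3 at 0.0731 and Loxl4 at 0.139 by limma did not), and 3 passed both criteria, against 3.75%. Same-numbered samples were in the same set and shared its adjustment, and no pairing of single mice was given in the sources used here. The correlation of the deviations of same-numbered samples was -0.56 to -0.0011 in the 12 pairs. Of the 24 samples, 0 correlated best with its own number. The cause of these changes was not tested.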
